A study of Mus musculus with 30 samples.

Results

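The mouse Zfp genes are zinc finger genes named by a number, and most of them encode proteins built from arrays of C2H2 fingers that bind DNA. Of 25611 gene rows, 403 had a symbol made of Zfp and a number. A mean of at least 5 CPM (the count as a share of the library total, in counts per M counts) over all 30 libraries left 242 genes, after Zfp36, Zfp36l1 and Zfp36l2 had been set apart as factors of RNA decay. The genes were thus chosen by their mean CPM, which draws on all groups alike. Just inside the limit stood Zfp846 at 5.03, Zfp521 at 5.03 and Zfp951 at 5.05 CPM, and just outside stood Zfp712 at 4.66, Zfp85 at 4.61 and Zfp759 at 4.57 CPM. All 242 passed the filter on low counts and were tested among 14808 genes. In 206 of them the mean was at least 5 CPM in every group, and in 36 it was so in some groups only. Of the Zfp genes under the limit, 105 were tested but are not described, and 17 had no count in any library.

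Many C2H2 zinc finger proteins also carry a KRAB domain, which recruits the corepressor TRIM28 and with it enzymes that write repressive chromatin, for the most part on transposable elements. These genes stand in clusters that grew by tandem duplication. The Zfp36 family is a different kind: its members carry CCCH fingers, bind the AU-rich element UAUUUAU in the 3' untranslated region of messages such as that of Tnf, and recruit the deadenylase CCR4-NOT, which leads to decay of the message.

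RNA was sequenced from mouse dendritic cells grown out of bone marrow with FLT3L at 200 ng/ml over 6 to 7 days. The cells were wild type (WT) or carried a knockout of Rubcn (KO), the gene of Rubicon, a protein of LC3-associated phagocytosis, and the series asks how non-canonical autophagy bears on cross-presentation. In each genotype 1 group was untreated, and the others were given ovalbumin (OVA), a soluble protein antigen, for 30 min or 4 h, or were fed apoptotic Jurkat cells for the same times. Jurkat is a line of human leukaemic T cells. There were 10 groups with 3 libraries apiece. The labels give neither the strain, sex and age of the mice nor the origin of the replicates, so p-values measure the spread between libraries, which may be technical.

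Library totals lay between 9.73 M and 51.6 M counts (median 44.9 M). The smallest was replicate 3 of KO with 30 min of OVA. Replicate 2 of KO with 4 h of Jurkat cells stood apart, with a chi-square per gene of 129 and 134 against its replicates, where other pairs within a group had at most 16.7. Of that sum 82.5% and 83.6% came from ribosomal Rn45s (1757926 counts, against 89933 and 70844), while the median over the Zfp genes was 1.08 and 0.90. Without this library KO with 4 h of Jurkat cells gave 200 Zfp genes called in place of 211 (37 higher, 163 lower), and the other counts it touches are given beside them. Rubcn was lower in KO libraries (70.4 to 75.8 CPM untreated) than in WT (95.6 to 105 CPM), with most of its counts still present, and a count over the whole gene does not show which exons they came from. The 14 dendritic cell markers were all detected in every group, and Flt3 averaged 567 CPM and Itgax 486 CPM in untreated WT cells. Counts were also seen of 28 genes of the T lineage, of which 15 were under 1 CPM when untreated. These 15 summed to 3.48 ± 0.077 CPM (SD, n = 3) in untreated WT, 41.2 ± 1.001 after 30 min and 106 ± 16.3 after 4 h of Jurkat cells. In KO the sums were 4.07 ± 0.724, 26.1 ± 5.74 and 72.5 ± 9.59 CPM, and with OVA they stayed between 2.95 and 4.03. How reads of the human cells were handled is not given, and their part in the results with Jurkat cells was not tested. In such bulk samples, fewer cells of a type and less RNA per cell cannot be told apart.

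From here on CPM values use library sizes scaled by trimmed mean of M-values (TMM), log2 fold changes come from 1 edgeR quasi-likelihood fit of all 30 libraries, and a gene is called when its Benjamini-Hochberg adjusted p over all genes tested is under 0.05. In untreated WT cells the 242 Zfp genes ranged from 4.35 to 419 CPM with a median of 21.4. Longest-coding GENCODE transcripts could be matched for 239 of them. A C2H2 pattern was found in 235, with a median of 10 fingers and at most 41, and 104 held a strict KRAB pattern that misses divergent domains. By mean level Zfp106, an RNA-binding protein, came first, followed by Zfp207, a mitotic spindle protein also known as BuGZ, Zfp710, Zfp217, a corepressor partner, and Zfp871. In untreated WT libraries Zfp106 stood at 422, 415 and 419.7 CPM and Zfp207 at 268, 247 and 241 CPM. Zfp106 and Zfp207 are shown for scale. With 4 h of Jurkat cells in WT, Zfp106 fell by 0.31 (SE 0.040), Zfp217 rose by 0.54 (SE 0.039) and Zfp207 measured 0.04 (SE 0.041, adjusted p = 0.404). Under scaling to total counts, which shifted the median of all genes from -0.02 to -0.42, the value of Zfp207 was -0.37.

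After 4 h of apoptotic Jurkat cells most Zfp genes were lower. In WT, 172 of 242 fell (71.1%, against 40.6% of all genes tested) and 43 rose (17.8%, against 38.9%). Their median log2 fold change was -0.45, against -0.02 over all genes tested and -0.08 over the 10227 tested genes with a mean of at least 5 CPM. Called changes of at least 2-fold were seen downward in 48 genes (19.8%, against 12.5% of all genes tested) and upward in 6 (2.48%, against 17.2%). In KO, 168 fell (69.4%, against 41% of all genes tested) and 43 rose (17.8%, against 37.5%), with a median of -0.40. In 162 genes the fall was called in both genotypes, out of 172 in WT and 168 in KO, and 40 rose in both. Without any 1 library the number called ran from 207 to 213 in WT and from 200 to 206 in KO. The 4 h Jurkat libraries had TMM factors of 0.765 to 0.842, against 1.03 to 1.07 in all others. Scaling to total counts instead moved the median of all genes to -0.42 and that of the Zfp genes to -0.86 in WT, with 18 higher and 211 lower, against 24.1% and 59.1% of all genes. In KO total-count scaling gave 22 higher and 205 lower, against 23.8% and 58% of all genes.

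The summed level of the 242 genes was 8410 ± 248 CPM in untreated WT cells (SD, n = 3), 7730 ± 34.7 after 30 min and 7312 ± 271 after 4 h of Jurkat cells. In KO it was 8153 ± 72.3, 7784 ± 101 and 7124 ± 133 CPM. As a share of all counts, WT libraries fell from between 0.864% and 0.916% untreated to between 0.570% and 0.586% at 4 h, so the libraries did not overlap.

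**Figure D1:**
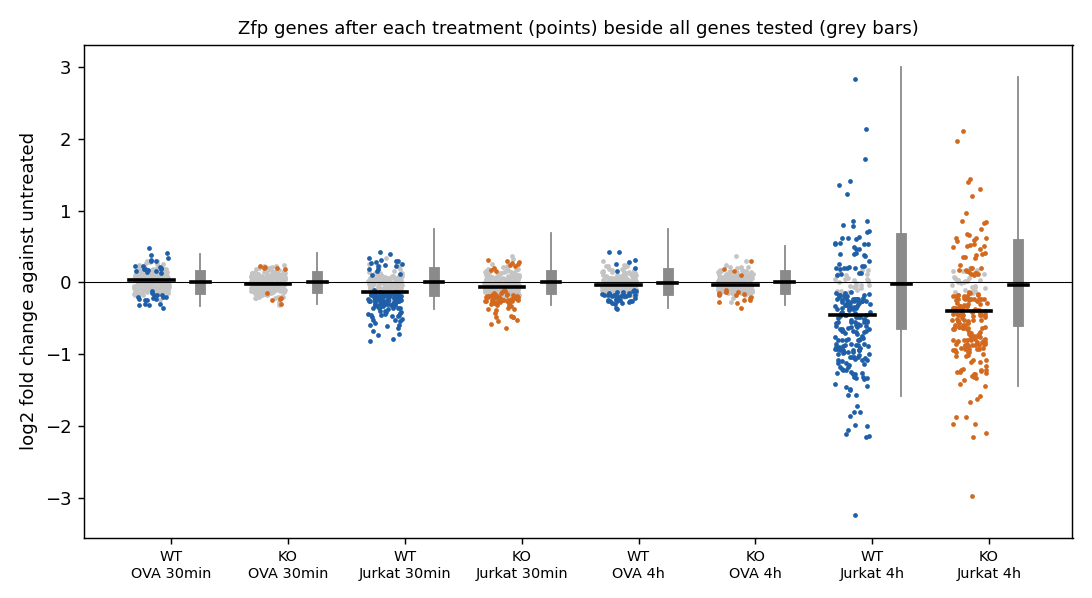
Log2 fold change against untreated cells (y axis) of each of the 242 Zfp genes in each genotype and treatment (x axis). Coloured points passed the test (blue WT, orange KO), light grey points did not, and the black bar is their median; the grey bars give the 5th to 95th (thin) and 25th to 75th (thick) percentiles of all genes tested with their median. At 4 h with Jurkat cells the Zfp median sat at -0.45 in WT and -0.40 in KO, against -0.02 over all genes in WT.

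The RNA-decay factors moved in opposite directions at 4 h. Zfp36, which encodes tristetraprolin, stood at 198, 222 and 227 CPM in untreated WT libraries and at 345.5, 346 and 368 CPM after 30 min of Jurkat cells. At 4 h it stood at 1067, 1127 and 1094 CPM, above every other WT library. Its log2 fold change was 0.71 (SE 0.052, edgeR adjusted p = 3.11e-11) at 30 min and 2.35 (SE 0.054, adjusted p = 4.55e-25) at 4 h in WT, and 0.92 and 2.49 in KO. Zfp36l1 was near its untreated level at 30 min, with 0.06 (SE 0.051, adjusted p = 0.447) in WT. It then rose from 207 ± 3.4 to 768 ± 33.6 CPM at 4 h, a log2 fold change of 1.89 (SE 0.053, adjusted p = 2.7e-23), and of 1.95 in KO. Zfp36l2 went the other way. It stood at 505, 513 and 526 CPM in untreated WT libraries and at 98.9, 87.4 and 93.0 CPM at 4 h, and fell by 2.47 (SE 0.049, adjusted p = 1.81e-26), and in KO by 2.34. The untreated and 4 h libraries of each genotype did not overlap for any of these genes.

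With 4 h of OVA the values were smaller. In WT it raised Zfp36 by 0.38 and Zfp36l1 by 0.43 and lowered Zfp36l2 by 0.17, each called, and in KO the values were 0.25, 0.26 and -0.04, the last not called (adjusted p = 0.63). Between genotypes Zfp36 was lower in KO when untreated, at 181 ± 5.1 against 216 ± 15 CPM (log2 fold change -0.25, SE 0.052, adjusted p = 0.00157), and at 4 h of OVA (-0.39). Zfp36l1 was lower in KO when untreated (-0.18), at 30 min of OVA (-0.21) and at 4 h of OVA (-0.35). The untreated call of Zfp36l1 was lost without KO replicate 2 (-0.15, adjusted p = 0.12), KO replicate 3 (-0.18, 0.0517), WT replicate 1 (-0.17, 0.073) or WT replicate 2 (-0.18, 0.0609), and that at 30 min of OVA without WT replicate 2 (-0.17, 0.0613). Zfp36l2 was higher in KO at 4 h of OVA (0.18, adjusted p = 0.00827) and at 4 h of Jurkat cells (0.18, adjusted p = 0.00724), the last not called without WT replicate 2 (0.14, adjusted p = 0.0699). With 4 h of Jurkat cells the values were -0.10 for Zfp36 (adjusted p = 0.152) and -0.12 for Zfp36l1 (adjusted p = 0.0948). The differences between the genotypes' responses to 4 h of OVA (KO minus WT) measured -0.13 for Zfp36, -0.17 for Zfp36l1 and 0.13 for Zfp36l2, and none passed the test (adjusted p = 0.702, 0.62 and 0.676). Those to 4 h of Jurkat cells measured 0.15 for Zfp36, 0.06 for Zfp36l1 and 0.13 for Zfp36l2, and none passed the test (adjusted p = 0.27, 0.694 and 0.293).

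**Figure D2:**
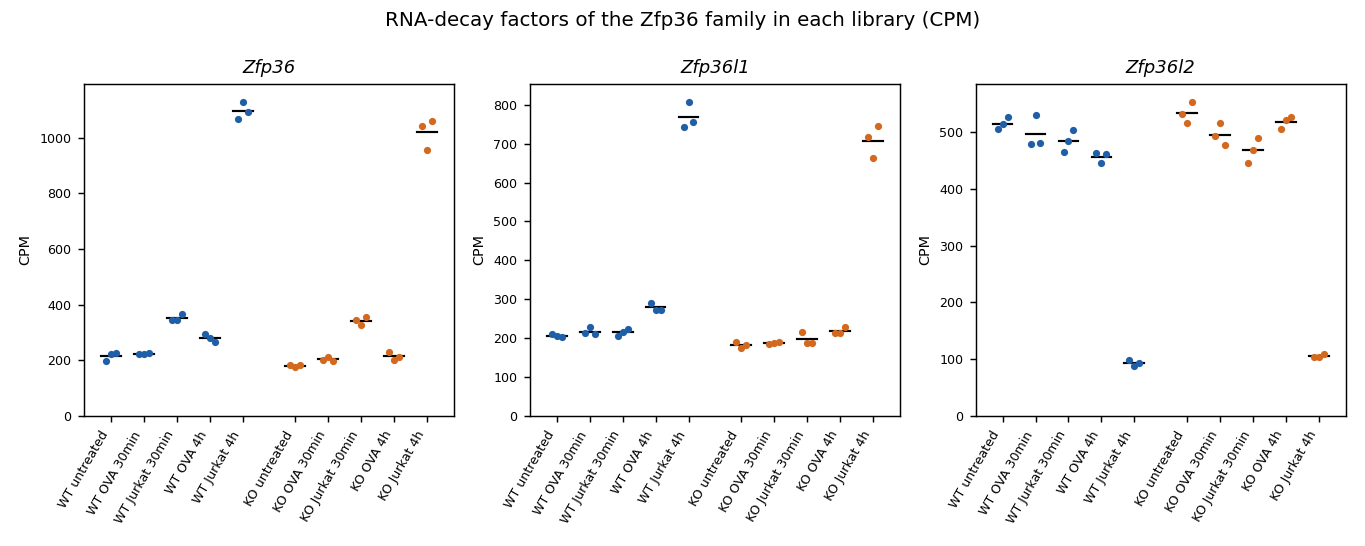
CPM of Zfp36, Zfp36l1 and Zfp36l2 (y axis, from 0) in every library of the 10 groups (x axis; blue WT, orange KO), with the group mean as a bar. At 4 h with Jurkat cells Zfp36 averaged 1096 CPM in WT and 1020 in KO, while Zfp36l2 averaged 93.1 and 105 CPM.

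Of 20 messages known or proposed to be bound by the Zfp36 family, all 20 rose in WT at 4 h of Jurkat cells, where 38.9% of all genes tested rose. In KO 19 rose and 1, Myc, fell, where 37.5% of all genes tested rose. The list was chosen with these data already known, so its count cannot show an effect of the family, which was not tested. Tnf went from 10.47 ± 0.93 to 1436 ± 43.4 CPM and Il1b from 24.0 ± 1.44 to 953 ± 39.2 CPM in WT. Of 29 genes of the deadenylation and decay machinery 12 rose and 10 fell, with a median of -0.02. Over all genes tested in WT 38.9% rose and 40.6% fell, also with a median of -0.02. The sequence UAUUUAU stood in the 3' untranslated region of 77 Zfp genes, or 32.2% of those matched, against 26.8% of the 13804 tested genes that were matched. Of these 77, 71.4% were called lower in WT at 4 h, and of the 162 without it 70.4%, while among all genes tested the shares were 37.9% with it and 42% without it.

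The rises at 4 h were led by Zfp599, a KRAB gene. It stood at 5.34, 4.92 and 4.75 CPM in untreated WT libraries and at 33.9, 41.3 and 32.0 CPM at 4 h, with no overlap. The log2 fold change was 2.83 (SE 0.09999, adjusted p = 7.35e-21), and in KO, where it went from 6.45 ± 0.30 to 25.4 ± 1.5 CPM, 1.97 (SE 0.097). Zfp800 rose from 49.3 to 217 CPM in WT (2.14, SE 0.094) and from 44.9 to 195 CPM in KO (2.12). Zfp691 rose by 1.73 and 1.399, Zfp513 by 1.42 and 1.45, and Zfp456 by 1.23 and 1.31 in WT and KO. Zfp366 encodes DC-SCRIPT, a corepressor known from dendritic cells. Its level was 38.3, 34.5 and 40.2 CPM in untreated WT libraries and 96.3, 104 and 88.4 CPM at 4 h, a log2 fold change of 1.35 (SE 0.066, adjusted p = 1.62e-17), and 1.21 in KO. Zfp281, a repressor studied in pluripotent cells, rose by 0.86 and 0.84, Zfp821 by 0.86 and 0.75, Zfp516, known from brown fat, by 0.81 and 0.83, and Zfp189 by 0.79 and 0.51.

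Among the falls Zfp395 came first. It stood at 34.7, 33.7 and 37.1 CPM in untreated WT libraries and at 3.83, 3.26 and 4.03 CPM at 4 h, and fell by 3.25 (SE 0.080, adjusted p = 1.56e-24). In KO it went from 35.4 to 4.51 CPM and fell by 2.97. Zfp652, a transcriptional repressor, went from 44.3 to 10.1 CPM in WT and from 43.2 to 10.1 CPM in KO, and fell by 2.13 and 2.09. Zfp282 was the most abundant of the 10, at 98.7 CPM in untreated WT and 24.7 at 4 h, and fell by 1.996 and 1.88 in WT and KO. Zfp760 fell by 2.16 and 1.97, Zfp874b by 2.10 and 2.15, Zfp157 by 2.06 and 1.97, and Zfp398 by 1.99 and 1.88. Zfp41 fell by 1.86 and 1.66, Zfp874a by 1.81 and 1.42, and Zfp61 by 1.81 and 1.62. In each of these genes the 3 libraries at 4 h lay below the 3 untreated ones in both genotypes. Such separation was a condition for naming these falls and the rises above, so it adds no support.

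**Figure D3:**
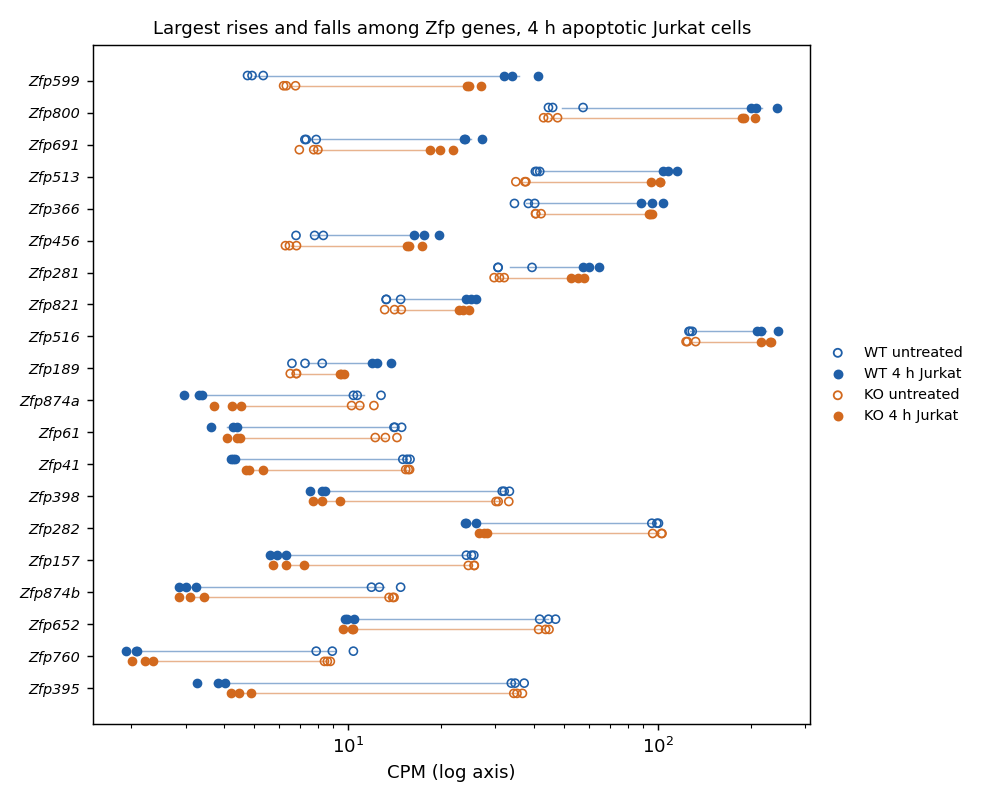
CPM (x axis, log axis) of the 10 largest rises and 10 largest falls called in both genotypes at 4 h with Jurkat cells (y axis, genes). Only genes without overlap of libraries were taken. Open symbols are untreated libraries and filled symbols libraries at 4 h, in blue for WT and orange for KO, 3 each, and lines join the means. Zfp395 fell from 35.2 to 3.71 CPM in WT and Zfp599 rose from 5.01 to 35.7 CPM.

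The counts at 4 h differed between Zfp genes with and without the KRAB pattern. Over all genes tested 40.6% fell and 38.9% rose in WT, and 41% fell and 37.5% rose in KO. At 4 h in WT, 86 of 104 with the pattern fell and 13 rose, with a median of -0.66, and in KO 83 fell and 12 rose, with a median of -0.61. Among 131 C2H2 genes without the pattern 80 fell and 30 rose in WT, with a median of -0.24, and 79 fell and 31 rose in KO. A set of 31 Zfp genes known as sequence-specific or cofactor proteins without KRAB was split, with 14 lower and 13 higher in WT. These counts lay near the shares over all genes tested. In 11 members linked to RNA 7 fell and none rose in WT, and in KO 6 fell and 1, the ribosome quality control ligase Zfp598, rose. At 30 min with Jurkat cells 43 of the 104 KRAB genes and 63 of the 131 others fell in WT, against 14.5% of all genes tested. These counts describe the genes and no test of the split was made.

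**Figure D4:**
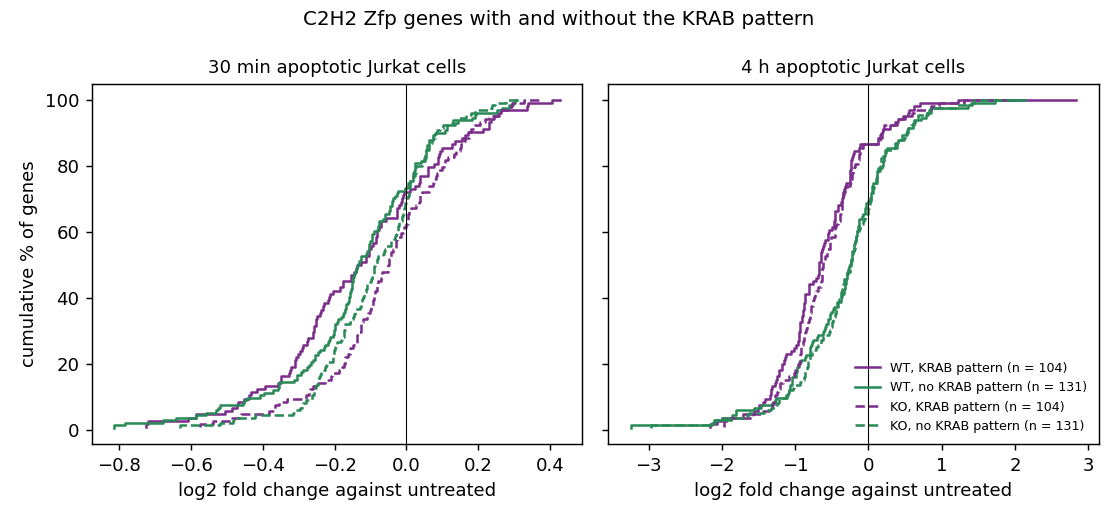
Cumulative percent of C2H2 Zfp genes (y axis) against log2 fold change versus untreated (x axis) for 30 min (left) and 4 h (right) of Jurkat cells, for genes with (purple) and without (green) the KRAB pattern in WT (solid) and KO (dashed). At 4 h the median was -0.66 with the pattern and -0.24 without it in WT, and at 30 min -0.12 and -0.13.

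Other zinc finger families, listed for comparison and not chosen for how they moved, were also counted in WT at 4 h. There 40.6% of all genes tested fell and 38.9% rose, with a median of -0.02. Of 35 Zbtb genes 15 fell and 10 rose (median -0.10), and of 15 Zscan and Zkscan genes, whose proteins carry a SCAN domain, 12 fell and 2 rose (median -0.55). Of 33 genes of the machinery that KRAB proteins recruit 17 fell and 9 rose, with a median of -0.26. Trim28, the corepressor itself, went from 364 ± 25.5 to 243 ± 11.9 CPM in WT and fell by 0.58 (adjusted p = 1.16e-12), and in KO by 0.56. Setdb1, its histone methyltransferase partner, fell by 0.56 and 0.54, while Morc3, a chromatin silencing ATPase, rose by 0.97 and 0.98.

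By position, 125 of the 242 genes lay in 20 clusters of at least 3 members with gaps of at most 500 kb (mm10). The largest, on chromosome 17 from 21008941 to 23564226, held 17 members, 16 of them with the KRAB pattern, of which 14 fell and 1 rose in WT at 4 h (median -0.91). On chromosome 17 from 32765496 to 33631714 all 10 members fell in both genotypes. In that cluster Zfp871 lost its call in WT without untreated replicate 1 (log2 fold change -0.08, adjusted p = 0.306) and without 4 h Jurkat replicate 1 (-0.17, adjusted p = 0.0881). The 3 members on chromosome 15 from 75616684 to 75975865 (Zfp41, Zfp623 and Zfp707) had a median of -1.57. A cluster on chromosome 17 from 55864892 to 55949500 went the other way, with Zfp119a, Zfp959 and Zfp119b all higher in WT (median 0.55). Members of tandem clusters resemble each other, and how reads shared by near copies were counted is not given.

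At 30 min of Jurkat cells the falls were smaller but already many. In WT 110 genes fell (45.5%, against 14.5% of all genes tested) and 17 rose (7.02%, against 14.2%). The median was -0.13 against 0.01 over all genes tested. In KO 60 fell (24.8%, against 8.26%) and 10 rose (4.13%, against 8.72%), with a median of -0.07. Of the 110 lower in WT and the 60 lower in KO, 58 were shared, and 7 rose in both. Leaving out KO untreated replicate 3 took the number called in KO from 70 to 45, and without any other 1 library it was at most 59. No Zfp gene passed the test of the difference between the genotypes' 30 min responses, where 0.00675% of all genes tested did, and 30 had an unadjusted p under 0.05. The difference was above 0 (a higher response in KO) in 180 of the 242, with a median of 0.06. It was below 0 in 25.6% of the Zfp genes, against 48.9% of all genes tested, whose median was 0.003. Between KO and WT at 30 min of Jurkat cells the Zfp median was 0.01, with 43% below 0. In untreated cells, which also enter the difference, it was -0.05, with 73.6% below 0. The 242 values come from the same libraries, so their number is no measure of replication. The summed T-lineage counts given above were also lower in KO than in WT at 30 min, and their part in these counts was not tested.

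The largest falls in WT were in Zfp189, Zfp235 and Zfp790. Zfp189 stood at 8.28, 7.29 and 6.61 CPM in untreated WT libraries and at 4.44, 4.18 and 4.00 at 30 min. It fell by 0.81 (SE 0.080, adjusted p = 8.16e-09), and in KO by 0.48 (SE 0.079). At 4 h it stood at 12.02, 13.8 and 12.5 CPM, above the untreated libraries. Zfp235 fell by 0.79 and 0.52 in WT and KO. Zfp790 went from 20.5, 20.2 and 20.2 CPM to 12.7, 12.2 and 11.9 CPM in WT and fell by 0.72 (SE 0.056, adjusted p = 1.03e-10), and in KO by 0.54. Zfp874b, Zfp60 and Zfp790 had the largest falls in KO, of 0.63, 0.57 and 0.54, and Zfp874a fell by 0.64 in WT and 0.42 in KO. Among the few rises in WT, Zfp51 was called without every library in turn, Zfp119b (0.43) lost its call without untreated replicate 3 (0.29, adjusted p = 0.155) and without 30 min Jurkat replicate 1 (0.33, adjusted p = 0.123), and Zfp945 (0.34) without untreated replicate 3 (0.27, adjusted p = 0.0671).

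Promoter windows were available for 201 of the 242 genes in RefSeq (GRCm38.p6), 245 windows in all, each from 250 bases before to 50 after a transcription start. The words searched on both strands were the CRE word TGACGTCA, the ETS word CCGGAAG, the TATA word TATAAA, the GC box GGGCGGG, the CAAT box word CCAAT, and the words named NRF1, ZNF143, YY1, NF-kB, ISRE and SRF after their factors. The ZNF143 word, known to be bound by ZNF143, whose mouse orthologue is Zfp143, and by THAP11, stood in 9.8% of the Zfp windows and in 1.02% of all 32851 windows of mouse genes. CCGGAAG stood in 20.4% against 8.86%, the NRF1 word in 9.8% against 4.6% and TATAAA in 4.49% against 13.6%. The median number of CG pairs per window was 16 against 7. None of these words contains another in full, and a match describes letters and not a bound site. The windows compared with are those of 27025 mouse genes, which include genes not tested here, so level was not matched. Of the other genes tested, 242 held the ZNF143 word in a window and 11153 did not, against 24 and 177 of the Zfp genes.

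Zfp189, Zfp790, Zfp60, Zfp874a and Zfp874b, which stand among the 30 min falls above, all hold the ZNF143 word, while the window of Zfp235 does not hold those letters. Their windows are printed 5' to 3' on the strand of the gene, to show the word within its surroundings. Capitals mark the ZNF143 word or its reverse complement, and in both Zfp874 genes also TGACGTCA.

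Zfp189 (chr4:49520926-49521225, plus strand): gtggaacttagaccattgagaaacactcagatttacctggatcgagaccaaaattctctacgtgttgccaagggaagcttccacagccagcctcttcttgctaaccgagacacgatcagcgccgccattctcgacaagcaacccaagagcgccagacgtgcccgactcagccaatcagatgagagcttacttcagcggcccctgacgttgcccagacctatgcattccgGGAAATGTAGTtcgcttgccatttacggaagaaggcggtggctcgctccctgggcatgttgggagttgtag

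Zfp790 (chr7:29815822-29816121, plus strand): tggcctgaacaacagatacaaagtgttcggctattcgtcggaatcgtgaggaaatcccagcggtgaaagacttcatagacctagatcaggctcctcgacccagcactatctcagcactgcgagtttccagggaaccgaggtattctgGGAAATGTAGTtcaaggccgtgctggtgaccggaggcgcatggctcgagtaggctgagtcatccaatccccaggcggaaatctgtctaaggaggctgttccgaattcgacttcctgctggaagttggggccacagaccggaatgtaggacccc

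Zfp60 (chr7:27731159-27731458, plus strand): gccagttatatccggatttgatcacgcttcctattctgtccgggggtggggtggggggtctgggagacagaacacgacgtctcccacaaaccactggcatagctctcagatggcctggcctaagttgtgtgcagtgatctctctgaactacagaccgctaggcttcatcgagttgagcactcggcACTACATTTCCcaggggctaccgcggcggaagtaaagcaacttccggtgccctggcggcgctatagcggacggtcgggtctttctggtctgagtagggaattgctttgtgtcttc

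Zfp874a (chr13:67451575-67451874, minus strand): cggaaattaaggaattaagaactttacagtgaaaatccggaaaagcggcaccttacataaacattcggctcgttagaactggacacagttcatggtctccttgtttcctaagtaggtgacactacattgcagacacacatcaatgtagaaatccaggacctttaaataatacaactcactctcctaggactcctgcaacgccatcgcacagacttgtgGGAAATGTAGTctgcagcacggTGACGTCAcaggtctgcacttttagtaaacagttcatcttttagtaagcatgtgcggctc

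Zfp874b (chr13:67484204-67484503, minus strand): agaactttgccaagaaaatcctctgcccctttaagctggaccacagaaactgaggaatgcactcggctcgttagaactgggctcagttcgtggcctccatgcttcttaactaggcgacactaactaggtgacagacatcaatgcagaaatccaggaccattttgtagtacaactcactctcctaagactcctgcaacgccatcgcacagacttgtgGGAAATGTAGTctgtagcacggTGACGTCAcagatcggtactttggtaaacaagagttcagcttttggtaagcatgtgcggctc

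In Zfp189, Zfp790 and both Zfp874 genes the word runs on the opposite strand, and in Zfp60 it runs with the gene. The windows of Zfp874a and Zfp874b, neighbours on chromosome 13, were identical at 205 of 298 bases compared without gaps. Of the 24 Zfp genes with the ZNF143 word in a window, 16 fell and 1 rose at 30 min in WT (median -0.29), against 75 lower and 13 higher of 177 with a window but without the word (median -0.11). In KO 10 of 24 and 39 of 177 fell. At 4 h 22 of 24 fell in each genotype, and the 2 that rose in both were Zfp189 and Zfp260. Of the 177 Zfp genes without the word, 122 fell in WT (68.9%) and 117 in KO (66.1%) at 4 h. Among the other genes tested, 27.3% of 242 with the word and 14.6% of 11153 without it were lower at 30 min in WT, and 53.3% and 40.8% at 4 h. With 30 min of OVA 1 of the 24 fell and 2 rose in WT, against 12 lower and 15 higher of the 177 without the word. Among the other genes tested, 12.8% with the word and 5.15% without it were lower there, and 4.96% and 1.86% in KO. The words were chosen with these results known, and no test of the split was made. Zfp143 itself measured 30.5 ± 0.91 CPM in untreated WT and 27.6 ± 0.79 CPM at 30 min of Jurkat cells.

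OVA moved fewer Zfp genes than Jurkat cells did, in each genotype and at each time. At 4 h 37 fell (15.3%, against 11.7% of all genes tested) and 7 rose (2.89%, against 11.9%) in WT. In KO 14 fell (5.79%, against 5.69%) and 4 rose (1.65%, against 5.94%). The medians were -0.04 in WT and -0.03 in KO. Falls were called in both genotypes for 11 genes, out of 37 and 14. Zfp395, the gene that fell most with Jurkat cells, was lower here too, from 35.2 ± 1.7 to 27.2 ± 1.4 CPM in WT (log2 fold change -0.37, SE 0.059, adjusted p = 2.07e-05), and in KO it fell by 0.24. Both treatments were compared with the same untreated libraries. Zfp658 fell by 0.35 in each genotype, and Zfp599 (0.42), Zfp456 (0.42) and Zfp429 (0.32) led the rises in WT. Without WT untreated replicate 3 the number called in WT went from 44 to 28. In KO the 18 called became 6 without untreated replicate 1, 8 without untreated replicate 3, and 10, 11 and 8 without OVA replicates 1, 2 and 3.

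At 30 min of OVA 18 fell (7.44%, against 5.15% of all genes tested) and 19 rose (7.85%, against 5.51%) in WT. Either way 15.3% of the Zfp genes were called there, against 10.7% of all genes. In KO 5 fell (2.07%, against 1.88%) and 5 rose (2.07%, against 1.88%), with 3.77% of all genes called in KO. Among genes whose libraries did not overlap, Zfp945 (0.42), Zfp770 (0.39) and Zfp626 (0.34) rose most in WT, and Zfp446 fell by 0.36. Of the 5 falls and 5 rises in KO, 4 each were also called in WT. The 37 called in WT became 62 without untreated replicate 1, 22 without untreated replicate 2 and 21 without OVA replicate 1. The 10 called in KO became 3 without untreated replicate 1, 4 without untreated replicate 3 and 2 without OVA replicate 2 or 3. None of the Zfp genes passed the test of a genotype difference in the response to OVA at either time, where 0.0405% of all genes did at 4 h and 0% at 30 min, with 5 at 4 h and 15 at 30 min under an unadjusted p of 0.05.

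Set against OVA directly, with the genotypes averaged, Jurkat cells gave 113 lower (46.7%, against 14.4% of all genes tested) and 12 higher (4.96%, against 15.5%) at 30 min. There 29.9% of all genes were called. At 4 h 176 were lower (72.7%, against 43.2%) and 46 higher (19%, against 39.4%). At 4 h Zfp395 differed by -2.80 (SE 0.056), Zfp652 by -1.89 (SE 0.039) and Zfp282 by -1.82 (SE 0.039). At 30 min Zfp790 differed by -0.61 (SE 0.041, adjusted p = 2.84e-12).

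Few Zfp genes differed between the genotypes. In untreated cells 4 were higher (1.65%, against 6% of all genes tested) and 4 lower (1.65%, against 3.97%) in KO. Either way 9.97% of all genes tested were called there. At 30 min of OVA 5 were higher (2.07%, against 6.25%) and 19 lower (7.85%, against 6.13%). With 30 min of Jurkat cells 13 were higher (5.37%, against 5.58%) and 3 lower (1.24%, against 3.67%), where 9.25% of all genes were called. With 4 h of OVA 6 were higher (2.48%, against 6.22%) and 7 lower (2.89%, against 6.35%). With 4 h of Jurkat cells 7 were higher (2.89%, against 9.37%) and 18 lower (7.44%, against 13.5%), where 22.9% of all genes were called. Each share was under that of all genes apart from the falls at 30 min of OVA, at 7.85%, where the share among tested genes with a mean of at least 5 CPM was 8.27%. Of the 242 log2 fold changes 178 were below 0 in untreated cells (73.6%, against 52.3% of all genes, median -0.05) and 177 at 30 min of OVA (73.1%, against 50.5%, median -0.08). In no condition were 180 of the 242 genes called, and 45 were called in 1 condition only. With scaling to total counts the 4 h Jurkat comparison gave 42 higher and 6 lower, against 20.3% and 6.83% of all genes, and the 4 h OVA comparison 9 and 4, against 8.98% and 4.95% of all genes. The 16 calls at 30 min of Jurkat cells were 9 higher and 4 lower with DESeq2 size factors. Basophil and mast cell genes were higher in untreated KO cells (6 of 6 called, 54.8 to 85.3 against 21.5 to 27.8 CPM in sum), as were stromal genes (5 of 7 called), and their part in these differences was not tested.

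Single libraries moved these counts. The 8 untreated calls became 2 without KO replicate 1, 4 without WT replicate 2 and 5 without WT replicate 3. The 24 at 30 min of OVA became 3 without KO replicate 2, 5, 10 and 40 without WT replicates 1, 2 and 3. The 16 at 30 min of Jurkat cells became 7 and 8 without KO replicates 2 and 3, and 10, 6 and 7 without WT replicates 1, 2 and 3. The 13 at 4 h of OVA became 4 and 7 without KO replicates 1 and 3, and 3 without WT replicate 1. The 25 at 4 h of Jurkat cells became 13 without KO replicate 2 (5 higher, 8 lower) and 11 without WT replicate 2.

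Zfp704 was called higher in KO in all 5 conditions. In untreated libraries it stood at 28.0, 26.8 and 27.9 CPM in KO and at 26.1, 22.4 and 22.6 in WT, a log2 fold change of 0.22 (SE 0.059, adjusted p = 0.0152). The values were 0.21 and 0.34 with 30 min and 4 h of OVA, and 0.30 and 0.24 with 30 min and 4 h of Jurkat cells, with no overlap of the genotypes in any condition. The untreated call was lost without KO replicate 1 (0.21, adjusted p = 0.0618), WT replicate 2 (0.18, 0.107) or WT replicate 3 (0.19, 0.0892). At 30 min of OVA it was lost without KO replicate 1 (0.17, 0.115), KO replicate 2 (0.23, 0.0545) or WT replicate 2 (0.14, 0.18), and at 4 h of Jurkat cells without KO replicate 1 (0.18, 0.096) or WT replicate 2 (0.18, 0.118). The calls at 30 min of Jurkat cells (adjusted p = 0.00129) and 4 h of OVA (adjusted p = 0.000203) held without any 1 library.

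Zfp521, a cofactor studied in blood-forming cells, stood near the limit, at 5.03 CPM in untreated WT and 4.06 in KO. It was called lower in KO when untreated (-0.31), at 30 min of OVA (-0.40) and of Jurkat cells (-0.32) and at 4 h of Jurkat cells (-0.30), and measured -0.28 (adjusted p = 0.051) at 4 h of OVA. In each condition the WT and KO libraries did not overlap. Every one of these calls was lost on leaving out some single library, with adjusted p up to 0.162. Zfp783 was called lower in KO at 30 min of OVA (-0.35) and of Jurkat cells (-0.24) and at 4 h of OVA (-0.22), and the last 2 calls were lost without single libraries (adjusted p up to 0.161).

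Zfp467, a regulator studied in adipocyte formation, was lower in untreated KO cells, at 15.5, 16.7 and 16.8 CPM against 19.5, 20.1 and 20.9 in WT, with no overlap (log2 fold change -0.31, SE 0.060, adjusted p = 0.000901). Zfp518b was higher there (0.27, SE 0.065, adjusted p = 0.00704). At 4 h of Jurkat cells Zfp703, a corepressor, was higher in KO by 0.35 (SE 0.061, adjusted p = 0.000139) and Zfp64 by 0.25 (SE 0.063), while Zfp599 was lower by -0.49 (SE 0.086, adjusted p = 0.000131) and Zfp189 by -0.41 (SE 0.073).

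**Figure D5:**
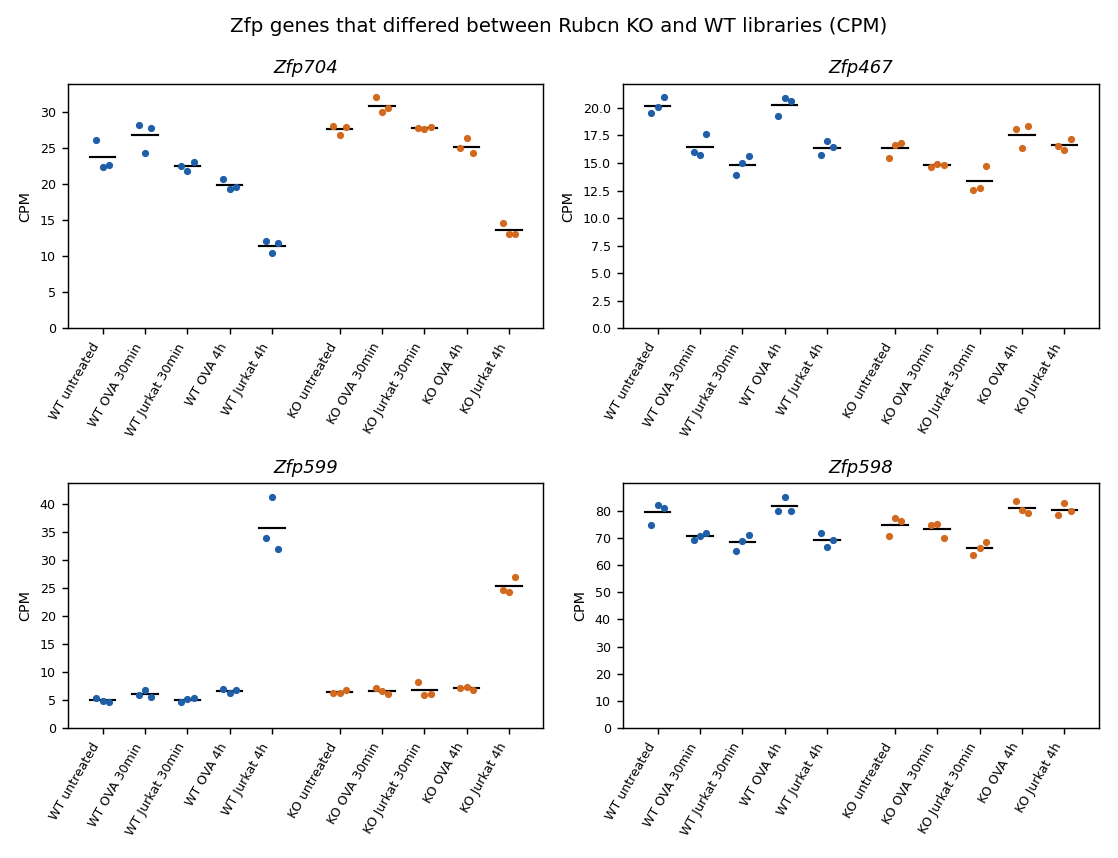
CPM (y axis, from 0) of 4 Zfp genes in every library of the 10 groups (x axis; blue WT, orange KO), with the group mean as a bar. The KO libraries of Zfp704 lie above the WT ones throughout, with 27.6 against 23.7 CPM untreated, while Zfp599 at 4 h of Jurkat cells averaged 35.7 CPM in WT and 25.4 in KO.

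The difference between the genotypes' responses to 4 h of Jurkat cells was called in 4 Zfp genes (1.65%), where 4.26% of all genes were called either way. Of these genes 3 had a response higher in KO (1.24%, against 1.72% of all genes) and 1 a lower one (0.413%, against 2.55%). Zfp599 rose less in KO, by a difference of -0.86 (SE 0.141, adjusted p = 0.000741), from an untreated level called higher in KO (0.37). Zfp598 fell by 0.20 in WT, from 79.4 ± 4.0 to 69.1 ± 2.5 CPM, and rose by 0.11 in KO, from 74.6 ± 3.5 to 80.3 ± 2.2 CPM, a difference of 0.30 (SE 0.062, adjusted p = 0.00482). Total-count scaling moved the median of all genes in KO from -0.03 to -0.37. That shift is larger than the rise of 0.11, so the direction of Zfp598 in KO rests on the scaling chosen. Zfp783 and Zfp467 had differences of 0.38 (adjusted p = 0.0475) and 0.33 (adjusted p = 0.0301). The untreated level of Zfp467 was called lower in KO (-0.31), and at 4 h of Jurkat cells neither gene was called between the genotypes. With total-count scaling 10 were higher and 1 lower, against 4.46% and 1.35% of all genes. The 4 became 3 (Zfp599, Zfp598 and Zfp467) without KO 4 h Jurkat replicate 2, and 2 without KO untreated replicate 1, WT untreated replicate 2 or KO 4 h Jurkat replicate 3. Zfp467 lost its call without KO untreated replicate 1 (0.29, adjusted p = 0.0839), WT untreated replicate 2 (0.33, 0.0566), WT untreated replicate 3 (0.30, 0.0736), KO 4 h Jurkat replicate 3 (0.30, 0.0817) or WT 4 h Jurkat replicate 1 (0.30, 0.0678).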

How the data were processed

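Total RNA of 30 libraries (10 groups of 3), prepared with the TruSeq RNA kit v2 per the labels' protocols, was sequenced, and the authors deposited 1 table of raw counts per gene, with 25611 rows. The submitters' processing notes name STAR 2.5, Subread, featureCounts 1.5.0-p1, DESeq2 and mm10, without their roles. Strand setting, treatment of reads with several positions and any step for human reads were not stated.

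From these counts 14808 genes passed edgeR's default filter on low counts (99.99% of counts kept). They were fitted in 1 quasi-likelihood model of the 10 groups (edgeR 4.0.16, limma 3.58.1, R 4.3.3) with TMM scaling, and p-values were adjusted by Benjamini-Hochberg over all genes tested at 0.05. The common biological coefficient of variation was 0.05153. On simulated data for WT with 30 min of Jurkat cells (13642 genes), 68% of 1.25-fold and 100% of 1.5-fold changes were recovered, with 10 false calls.

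Zfp genes and lists were chosen with earlier results of these data known. Named genes were the RNA-decay factors, Zfp366, the most abundant and those at the limit. At 4 h of Jurkat cells they were the 10 largest rises and falls called in both genotypes without overlap of libraries. In other treatments they were the 3 largest each way, between genotypes those called in 3 conditions or the 2 largest, and for interactions and Jurkat against OVA the 3 with the smallest p if called. All have a mean of at least 5 CPM in the higher group. Other genes named were chosen after their values were seen.

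Alternatives were DESeq2 (1.42.0) and its size factors, total counts, other filters, limits of 10 and 2 CPM, compared groups alone, a replicate block, and each library left out. The 30 min interactions and the split by promoter word were added after seeing the data. Replicate numbers were checked for pairing in 13 contrasts: same-numbered libraries correlated between -0.188 and 0.357 in their deviations, and every pair was over 0.1 in 1 contrast, KO against WT untreated. There the fit with the replicate block also gave 8 calls.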

Additional observations from a re-analysis of the deposited data

Results flagged for a closer look

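The response to 4 h of apoptotic Jurkat cells differed between Rubcn KO and WT cells in 4 Zfp genes (1.65%, against 4.26% of all genes tested). The test was of the difference itself (edgeR quasi-likelihood, Benjamini-Hochberg over all genes tested). Leaving out 1 library at a time gave 2 to 6 Zfp genes. Zfp599 had a difference of -0.862 (KO response minus WT response, log2; adjusted p = 0.000741), with rises in both genotypes. Its untreated level was called higher in KO. Zfp598 had a difference of 0.305 (adjusted p = 0.00482), with a fall in WT and a rise in KO under TMM scaling. Total-count scaling moved the median of all genes in KO from -0.03 to -0.37. That shift is larger than the rise, so the direction in KO rests on the scaling chosen. Zfp467 had a difference of 0.329 (adjusted p = 0.0301) and Zfp783 one of 0.379 (adjusted p = 0.0475). The untreated level of Zfp467 was called lower in KO (-0.31). At 4 h of Jurkat cells neither Zfp467 nor Zfp783 was called between the genotypes.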

How the results depend on the processing

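Counts below are of Zfp genes called, in both directions, among 242. With total-count scaling the KO against WT comparison at 4 h of Jurkat cells gave 48 in place of 25, and the difference between the genotypes' 4 h Jurkat responses 11 in place of 4. That difference gave 7 with a replicate block within genotype. With no filter on low counts KO with 4 h of OVA gave 11 in place of 18. Fitting the compared groups alone gave 3 in place of 8 for KO against WT untreated, 4 in place of 16 at 30 min of Jurkat cells, 24 in place of 13 at 4 h of OVA, 16 in place of 37 for 30 min of OVA in WT and 3 in place of 10 in KO. DESeq2 gave 13 for KO against WT untreated. The log2 fold change of Zfp207 at 4 h of Jurkat cells turned to -0.366 in WT and -0.307 in KO with total counts, a scaling that moves all genes alike and took the median of all genes in WT from -0.02 to -0.42. For the counts the cause was not tested.

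Leaving out 1 library at a time gave 207 to 213 calls at 4 h of Jurkat cells in WT and 200 to 206 in KO, and 98 to 118 and 45 to 59 at 30 min. For OVA it gave 28 to 55 and 6 to 14 at 4 h, and 21 to 62 and 2 to 8 at 30 min. Jurkat cells against OVA gave 112 to 126 at 30 min and 219 to 222 at 4 h. KO against WT gave 2 to 8 untreated, 3 to 40 at 30 min of OVA, 6 to 16 at 30 min of Jurkat cells, 3 to 11 at 4 h of OVA and 11 to 28 at 4 h of Jurkat cells. The difference in 4 h Jurkat responses gave 2 to 6, and the other differences 0. Of the named genes' values with 1 library left out, 1299 kept direction and side of the threshold, 121 lost the call, 8 gained it and 0 turned. With the replicate block over all groups 228 kept their call and 1 lost it, and no count of calls moved by over 1.5 times. The shallowest library, replicate 3 of KO with 30 min of OVA, and the Rn45s-rich replicate 2 of KO with 4 h of Jurkat cells limit the precision of their groups. Over the Zfp genes untreated WT replicate 1 stood furthest from its replicates, and every WT contrast against untreated uses it.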
